A study of Mus musculus with 2 samples.

Results

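The 10 genes described here are the vascular endothelial growth factors Vegfa, Vegfb and Vegfc, their receptors Kdr, Flt1 and Flt4, the angiopoietins Angpt1 and Angpt2, the angiopoietin receptor Tek and the related receptor Tie1. They were chosen by name from the 27998 genes listed in the files, with earlier results of these data known. Their UMIs (unique molecular identifiers, each standing for one captured transcript) were counted in single cells of the epididymal white adipose tissue (eWAT) stromal vascular fraction, the cells left after the fat pad is digested and the floating adipocytes are removed. One library came from C57BL/6 mice fed a low-fat diet (LFD) and one from C57BL/6 mice fed a high-fat diet (HFD), both for 24 weeks from 6 weeks of age. One protocol field of the labels names the low-fat diet for both libraries, and the diets here follow the treatment and title given for each. The methods describe the animals as C57BL/6J males, and no mutation or drug was used in either group. How many animals went into a library is not given in the sources used here, so the spread between animals is unknown and no test between diets was possible. The question asked of these genes was which stromal cells held the ligand and receptor transcripts on each diet.

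VEGF-A binds KDR (VEGFR2), the main growth and permeability receptor of blood vessel endothelium, and FLT1 (VEGFR1), which binds it tightly and signals weakly. VEGF-B binds FLT1, and VEGF-C acts through FLT4 (VEGFR3), the receptor best known from lymphatic vessels. ANGPT1, made by cells around the vessel, activates the endothelial receptor TEK (TIE2) and stabilises vessels, whereas ANGPT2, made by endothelium, can oppose it; TIE1 has no well-established ligand of its own and modulates TEK. Adipose tissue is one of the few adult tissues whose vessels keep growing with the tissue, and mature adipocytes, which are not captured in this fraction, are themselves a known source of VEGF-A.

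The promoters of the 5 receptors are shown because their transcripts divided in these data, Kdr, Flt1, Flt4 and Tie1 being held almost wholly by barcodes with endothelial marker genes and Tek being found in fibroblasts as well. Each line gives the 300 bases from 250 before to 50 after the start of transcription, 5′ to 3′ on the gene's strand, as RefSeq gives them on GRCm38.p6. Capitals mark GGAA and its reverse complement TTCC, the core bound by ETS factors, a transcription factor family that includes the endothelial factors ERG and FLI1. The windows lie at chr5:75978406-75978705 (minus strand) for Kdr, chr5:147725962-147726261 (minus strand) for Flt1, chr11:49609429-49609728 (plus strand) for Flt4, chr4:118489800-118490099 (minus strand) for Tie1 and chr4:94739039-94739338 (plus strand) for Tek.
Kdr: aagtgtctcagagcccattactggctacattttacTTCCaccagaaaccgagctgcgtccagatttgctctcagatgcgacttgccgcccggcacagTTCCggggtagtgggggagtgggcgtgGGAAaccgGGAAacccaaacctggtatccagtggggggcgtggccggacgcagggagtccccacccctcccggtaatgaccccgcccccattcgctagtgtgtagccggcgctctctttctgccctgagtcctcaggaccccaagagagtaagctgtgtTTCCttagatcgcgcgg
Flt1: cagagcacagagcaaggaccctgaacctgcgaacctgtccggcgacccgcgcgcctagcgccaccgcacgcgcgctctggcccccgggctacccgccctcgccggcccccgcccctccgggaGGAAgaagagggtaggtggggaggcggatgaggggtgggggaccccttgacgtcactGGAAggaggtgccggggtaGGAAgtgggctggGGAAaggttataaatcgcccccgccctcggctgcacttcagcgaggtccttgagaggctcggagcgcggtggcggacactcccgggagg
Flt4: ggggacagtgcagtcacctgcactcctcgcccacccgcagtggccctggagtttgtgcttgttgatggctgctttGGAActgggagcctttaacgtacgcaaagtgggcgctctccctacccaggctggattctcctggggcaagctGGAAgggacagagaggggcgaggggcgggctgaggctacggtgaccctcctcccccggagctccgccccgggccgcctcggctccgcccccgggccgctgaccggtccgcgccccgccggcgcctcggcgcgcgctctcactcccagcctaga
Tie1: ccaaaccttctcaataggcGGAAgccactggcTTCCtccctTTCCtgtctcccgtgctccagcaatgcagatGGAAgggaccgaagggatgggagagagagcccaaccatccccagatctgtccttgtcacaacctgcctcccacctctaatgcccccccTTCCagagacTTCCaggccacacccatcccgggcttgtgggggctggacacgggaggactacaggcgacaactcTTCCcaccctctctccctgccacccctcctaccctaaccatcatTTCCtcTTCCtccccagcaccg
Tek: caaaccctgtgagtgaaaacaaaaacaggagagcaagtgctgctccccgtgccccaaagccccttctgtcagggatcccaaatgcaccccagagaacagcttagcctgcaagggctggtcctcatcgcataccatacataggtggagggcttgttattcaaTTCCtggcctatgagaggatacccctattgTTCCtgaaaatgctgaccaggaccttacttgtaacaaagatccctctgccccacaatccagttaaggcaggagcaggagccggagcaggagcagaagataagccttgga

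The core was matched 9 times in the Tie1 window, 5 times in that of Kdr, 4 times in that of Flt1 and 2 times in those of Flt4 and Tek. Among the ligands it was matched 6 and 3 times in the windows of Vegfa and 2 times in those of Vegfb and Vegfc, so the number of matches did not follow the division between endothelial and fibroblast transcripts. At least 1 match was present in 96.0% of the 32851 promoter windows of the same length, with a median of 3, so its presence does not set these promoters apart. The core of the hypoxia response element, ACGTG on either strand, was in 19.6% of all windows. Among the 9 windows of the 8 members that had one, it was found in the second Vegfa window alone. Such matches describe the letters of the window and not a bound site. Angpt1 and Angpt2 had no window in the table.

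Barcodes with at least 200 detected genes, 1057 on LFD and 1117 on HFD, were put into classes by marker UMIs. Dcn of at least 10 marked fibroblasts, and those with at least 3 UMIs of Pi16, Dpp4 and Sema3c together, markers of interstitial progenitors, were kept apart as Pi16-group fibroblasts. Cdh5 and Cldn5 of at least 3 marked endothelial cells, Rgs5, Kcnj8, Abcc9 and Notch3 of at least 5 marked mural cells, and C1qa, C1qb and C1qc of at least 10 marked macrophages. On LFD and HFD respectively this gave 204 and 207 fibroblasts, 173 and 84 Pi16-group fibroblasts, 98 and 115 endothelial barcodes and 230 and 321 macrophages. The libraries held 7356278 and 8412325 UMIs in 1113 and 1144 barcodes and shared no barcode. Only 5 and 6 barcodes met the mural rule alone, whereas 51 and 92 met the endothelial and the mural rule together. These double-rule barcodes had a median of 13270 and 9029 UMIs against 4317.5 and 3156 in the endothelial class, and carried Pdgfrb, Cspg4 and Higd1b of pericytes beside Gpihbp1 and Pecam1 of endothelium. They were kept as a separate class, and mural and endothelial contributions to it cannot be told apart.

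Across the whole library, 4 of the 10 genes were lower on HFD and 1 was higher with an interval that left out a ratio of 1. Levels are CPM, a gene's UMIs per 1000000 UMIs of the library or class, and all intervals are exact 95% intervals that cover counting error only. Vegfc had 19.8 CPM on LFD and 9.87 CPM on HFD, a ratio of 0.497 (0.375 to 0.655). Tek had 63.2 and 36.7 CPM (ratio 0.581, 0.502 to 0.672), and Angpt1 had 10.6 and 6.06 CPM (0.572, 0.394 to 0.824). Kdr had 189 and 152 CPM (0.805, 0.746 to 0.869), whereas Flt4 had 9.11 and 14.3 CPM (1.57, 1.15 to 2.14). One HFD barcode held 36 of the Flt4 UMIs, and without the richest barcode of each library the Flt4 ratio was 1.19 (0.846 to 1.68). The intervals of Vegfa, Vegfb, Flt1, Tie1 and Angpt2 included 1. Of all 11382 genes with at least 50 UMIs, 25.3% were lower and 18.1% were higher by the same criterion. A library level moves with the mix of cells as well as with the level in each cell, so the genes were followed class by class.

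**Figure D1:**
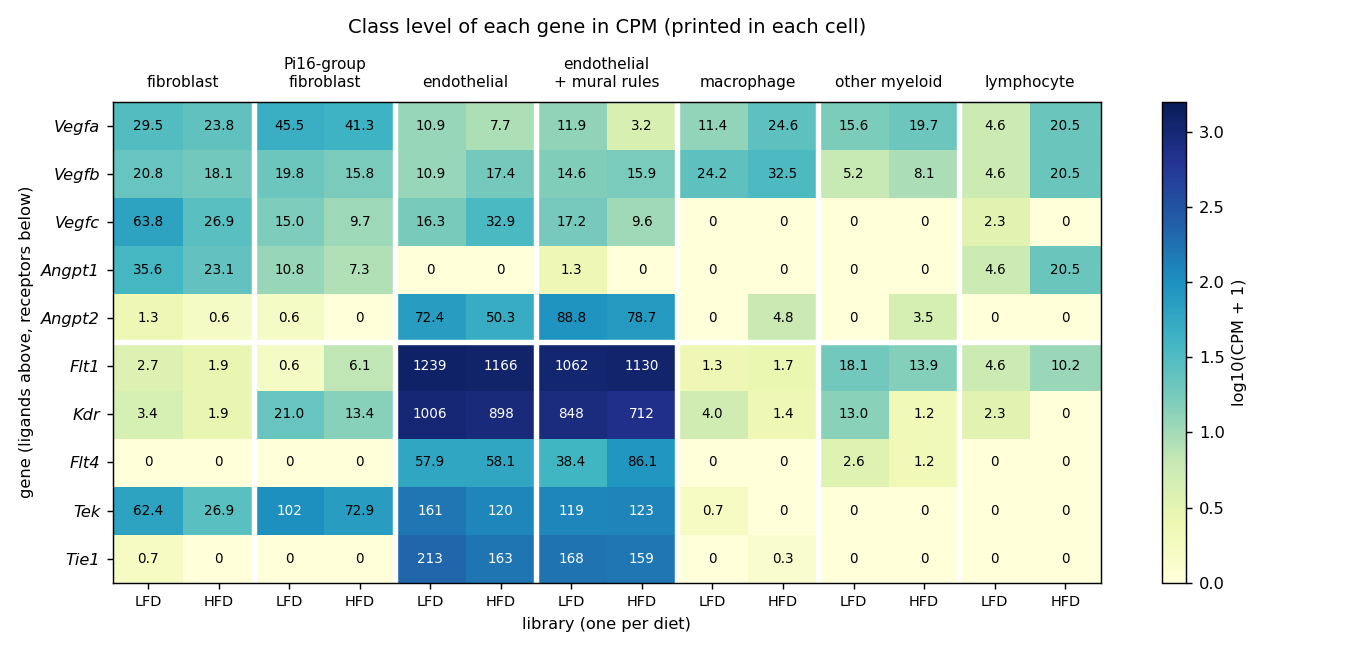
Level of each gene in CPM (number in each cell, colour on a log10(CPM + 1) scale) in 7 barcode classes of the LFD and HFD libraries, with ligands above the white line and receptors below it. Kdr, Flt1, Flt4 and Tie1 were high only in the 2 endothelial columns among those drawn, while Tek was also present in both fibroblast classes, from 26.9 to 102 CPM.

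Vegfa, the main ligand for blood vessel growth, came mostly from fibroblasts on LFD and in equal part from fibroblasts and macrophages on HFD. Of 167 Vegfa UMIs on LFD, 71.9% lay in both fibroblast classes together and 10.2% in macrophages (interval of the macrophage share, 6.04 to 15.8%). Of 178 Vegfa UMIs on HFD, 40.4% lay in the fibroblast classes and 40.4% in macrophages (33.2 to 48.0%). Of the UMIs of all genes, macrophages held 1486316 of 7279955 on LFD and 2926761 of 8389196 on HFD. Vegfa had 22.9 and 21.2 CPM over all barcodes with 200 genes, beside 11.4 and 24.6 CPM in macrophages. The HFD macrophage share was thus little above their share of all UMIs. Lymphocytes, which serve as a measure of free RNA, had 4.61 CPM on LFD and 20.5 CPM on HFD, each from 2 UMIs in 1 barcode. The fibroblast levels were 29.5 CPM on LFD and 23.8 CPM on HFD (ratio 0.805, 0.507 to 1.27). The HFD fibroblast interval, 16.8 to 32.6 CPM, lay above that of HFD barcodes meeting the endothelial rule, 2.68 to 10.3 CPM. Pi16-group fibroblasts had 45.5 and 41.3 CPM (0.908, 0.587 to 1.38). Their level exceeded that of the other fibroblasts 1.54-fold on LFD (1.05 to 2.29) and 1.74-fold on HFD (1.06 to 2.84). The smaller fibroblast share on HFD came with fewer Pi16-group barcodes, 84 against 173, more macrophages and a higher macrophage level. Vegfa over both fibroblast classes together had a ratio of HFD over LFD of 0.783 (0.576 to 1.06). Without barcodes carrying the mesothelial genes Upk3b, Upk1b and Msln, the ratio was 0.719 (0.524 to 0.980), an interval that left out 1. That grouping was made after the values were seen. How much each of these contributed to the smaller share was not tested.

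In macrophages Vegfa had 17 UMIs on LFD (11.4 CPM) and 72 UMIs on HFD (24.6 CPM), a ratio of 2.15 (1.25 to 3.89). These lay in 4 of 230 LFD barcodes (1.74%, 0.476 to 4.39%) and 28 of 321 HFD barcodes (8.72%, 5.87 to 12.4%). Lymphocytes had a Vegfa UMI in 1 of 101 barcodes on LFD and 1 of 41 on HFD, at median depths of 2833 and 2027 UMIs against 6328 and 6915 in macrophages. After thinning every barcode to 1000 UMIs the macrophage shares were 0.452 and 1.54%, against 0.139 and 2.10% of lymphocytes. The HFD lymphocyte level of 20.5 CPM rested on 2 UMIs in 1 barcode (2.48 to 74.0). Every HFD barcode meeting the endothelial rule together had 5.59 CPM (2.68 to 10.3), below the macrophage interval of 19.2 to 31.0 CPM. One LFD macrophage held 10 of the 17 UMIs. Without the richest barcode of each library the levels were 4.77 and 23.2 CPM and the ratio was 4.86 (2.23 to 12.5). With the class thresholds doubled the ratio was 5.17. Of the 2 members with at least 50 UMIs in macrophages, Vegfa was the 1 at least 2-fold higher on HFD, beside 5.36% of all genes tested in this class that were higher and 5.9% that were lower.

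Vegfa in HFD macrophages was concentrated in barcodes with Cd9, a tetraspanin that marks the lipid-associated macrophages of obese fat. Cd9 was present in 117 of 321 HFD macrophages and 4 of 230 LFD macrophages. HFD macrophages with a Cd9 UMI had 39.7 CPM of Vegfa (30.5 to 50.7), against 6.73 CPM (3.08 to 12.8) in those without, a ratio of 5.89 (2.92 to 13.5). Median depth was 9057 UMIs in the former and 6460.5 in the latter. LFD macrophages without Cd9 had 11.8 CPM (6.88 to 18.9), so outside the Cd9 barcodes the ratio of HFD over LFD was 0.570 (0.224 to 1.35). This ratio rests on 1 LFD barcode with 10 of the 17 UMIs, and was 1.36 (0.452 to 4.31) without it and 0.915 (0.254 to 3.18) without the richest barcode of both libraries. The 4 LFD macrophages with Cd9 held no Vegfa UMI, with an upper bound of 79.3 CPM. The split by Cd9 was made after the values were seen.

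The glucose transporter Slc2a1, the glycolytic enzyme Ldha and the stress gene Ndrg1, all of which are known to be induced with Vegfa at low oxygen, were also higher in HFD macrophages. They are 3 of a list of 10 oxygen-sensing genes that did not all move this way, and Slc2a1 had fewer than 50 UMIs there. Ldha had 120 CPM on LFD and 346 CPM on HFD (ratio 2.89, 2.46 to 3.41). Ndrg1 had 1 UMI in 1 LFD barcode and 57 UMIs in 34 HFD barcodes (ratio 28.9, 4.99 to 1163). Slc2a1 had 1 UMI in 1 LFD barcode and 38 UMIs in 25 HFD barcodes (ratio 19.3, 3.26 to 782). In macrophages without Cd9 the ratio of Ldha was 2.09 (1.72 to 2.53), that of Ndrg1 17.2 (2.68 to 722) and that of Slc2a1 6.46 (0.783 to 297). The intervals of Ldha and Ndrg1 left out 1 there and that of Slc2a1 did not. Of the 10 oxygen-sensing genes listed, 4 had at least 50 UMIs in macrophages, 2 of these were at least 2-fold higher and none was 2-fold lower, where 5.36% of all genes in the class were higher and 5.9% lower. The median ratio of the 4 was 1.84 against 0.990 for all genes in the class. The 4 did not move together, since Ldha and Ndrg1 were the 2 higher and Hif1a was lower. The median lies between the higher and the lower genes. Hif1a, whose protein rather than transcript is usually regulated, had 83.4 and 62.5 CPM (0.749, 0.593 to 0.949), and 1.19 with the limits of the methods (200 to 2500 genes and under 5% mitochondrial UMIs).

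**Figure D2:**
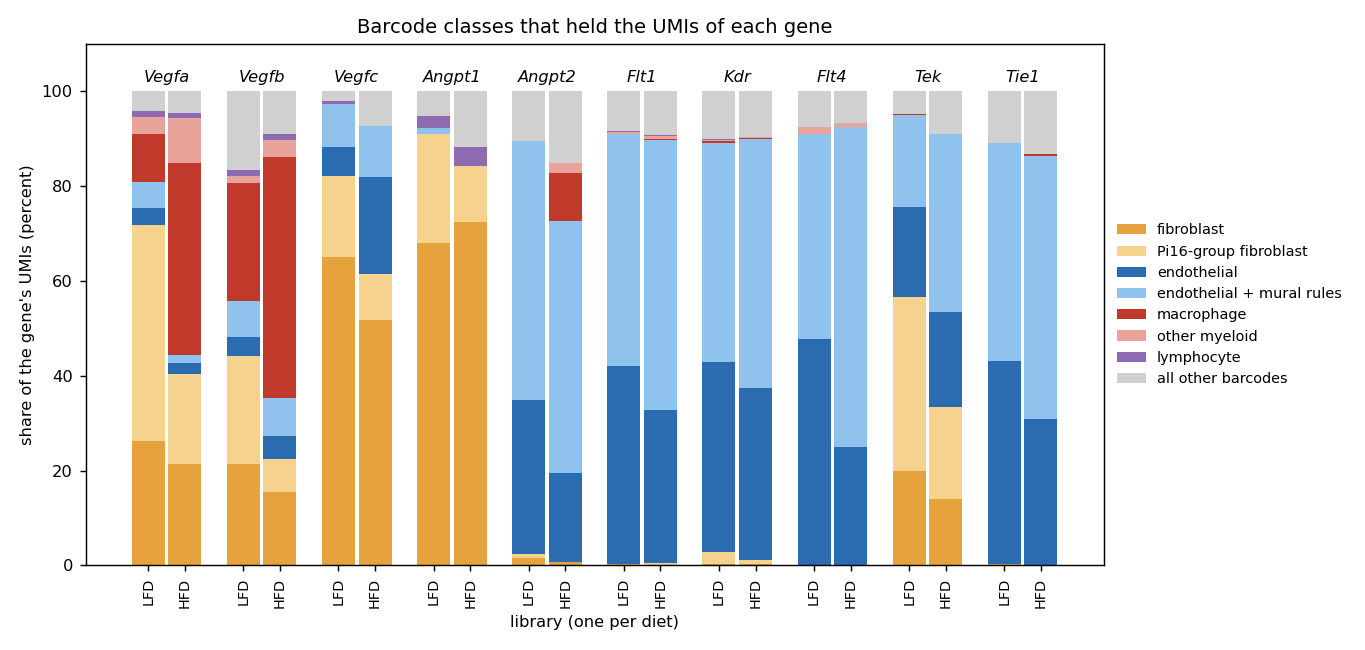
Share of the UMIs of each gene held by each barcode class in the LFD and HFD libraries, as stacked bars that sum to 100%. The macrophage share of Vegfa was 10.2% on LFD and 40.4% on HFD, and the share of Tek in both fibroblast classes was 56.6% on LFD and 33.3% on HFD.

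Vegfb, a ligand of FLT1 linked to fatty acid handling, was found in fibroblasts and macrophages on LFD and mainly in macrophages on HFD. Fibroblasts had 20.8 CPM on LFD and 18.1 CPM on HFD, Pi16-group fibroblasts 19.8 and 15.8 CPM, and macrophages 24.2 and 32.5 CPM (ratio 1.34, 0.904 to 2.03, and 0.753 with the limits of the methods). Macrophages held 24.8% of Vegfb UMIs on LFD and 50.8% on HFD, while their part of all barcodes was 21.8 and 28.7%. Of the UMIs of all genes they held 1486316 of 7279955 and 2926761 of 8389196. The macrophage level exceeded that of fibroblasts 1.16-fold on LFD (0.700 to 1.95) and 1.79-fold on HFD (1.17 to 2.81), the latter turning to 0.707 with the limits of the methods. Unlike Vegfa, Vegfb was not higher in Cd9 macrophages, with 25.8 CPM in HFD macrophages with Cd9 and 40.4 CPM in those without (0.639, 0.415 to 0.978). Lymphocytes had 4.61 CPM on LFD and 20.5 CPM on HFD, each from 2 UMIs. Every barcode meeting the endothelial rule together had 15.0 CPM on LFD and 17.3 CPM on HFD. Both fibroblast classes together had 20.3 and 17.3 CPM, so on HFD they did not stand above endothelium. Unclassified LFD barcodes, of low depth with a median of 945 UMIs, had 77.7 CPM of Vegfb from 17 UMIs, together with a summed 1513 CPM of the adipocyte transcripts Adipoq, Plin1 and Cidec; the part of such transcripts in the Vegfb value was not tested.

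Vegfc, the lymphatic growth factor, was mainly a transcript of the fibroblasts outside the Pi16 group, and was lower there on HFD. Fibroblasts had 95 UMIs on LFD (63.8 CPM) and 43 UMIs on HFD (26.9 CPM), a ratio of 0.422 (0.287 to 0.611). The UMIs lay in 50 of 204 and 31 of 207 barcodes (24.5 and 15.0%, or 5.36 and 2.74% after thinning), while lymphocytes had 1 UMI in all. In Pi16-group fibroblasts Vegfc had 15.0 and 9.72 CPM, so the level in the other fibroblasts was 4.26 times higher on LFD (2.72 to 6.91) and 2.77 times higher on HFD (1.29 to 6.81). Macrophages held no Vegfc UMI in either library, where up to 2.02 and 1.03 CPM would give 3 counts. In endothelial barcodes Vegfc stood at 9 and 17 UMIs (16.3 and 32.9 CPM; 2.02, 0.852 to 5.15), of which 6 UMIs in 3 barcodes and 9 UMIs in 4 barcodes lay among the 9 barcodes of each library with at least 3 UMIs of the arterial genes Gja5, Gja4, Sema3g and Hey1. These barcodes also carried the capillary gene Gpihbp1, at 3354 and 3087 CPM, and had median depths of 8299 and 6306 UMIs against 4305 and 3022 in the endothelial barcodes without arterial, venous or lymphatic genes. The Vegfc level in the barcodes with arterial genes was 65.3 CPM on LFD (24.0 to 142) and 168 CPM on HFD (77.0 to 320). In the endothelial barcodes without arterial, venous or lymphatic genes it was 6.68 and 15.6 CPM. Over every barcode meeting the endothelial rule, those with arterial genes had 24.4 CPM on LFD (13.97 to 39.7) and 27.1 CPM on HFD (15.5 to 44.1), each from 16 UMIs. The Vegfc ratio over all barcodes meeting the rule was 1.04 (0.582 to 1.86).

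Vegfd, the other lymphatic ligand, is listed under its older symbol Figf. It had 219 CPM in LFD and 191 CPM in HFD fibroblasts (0.872, 0.744 to 1.02) and 143 CPM in Pi16-group fibroblasts of both libraries. Of the 5 members with at least 50 UMIs in fibroblasts, Vegfc and Tek were at least 2-fold lower on HFD and none was 2-fold higher, where 2.04% of all genes tested were 2-fold lower and 1.5% 2-fold higher. In the Pi16 group, with 2 such members, neither passed 2-fold, against 1.74% of genes lower and 1.02% higher.

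**Figure D3:**
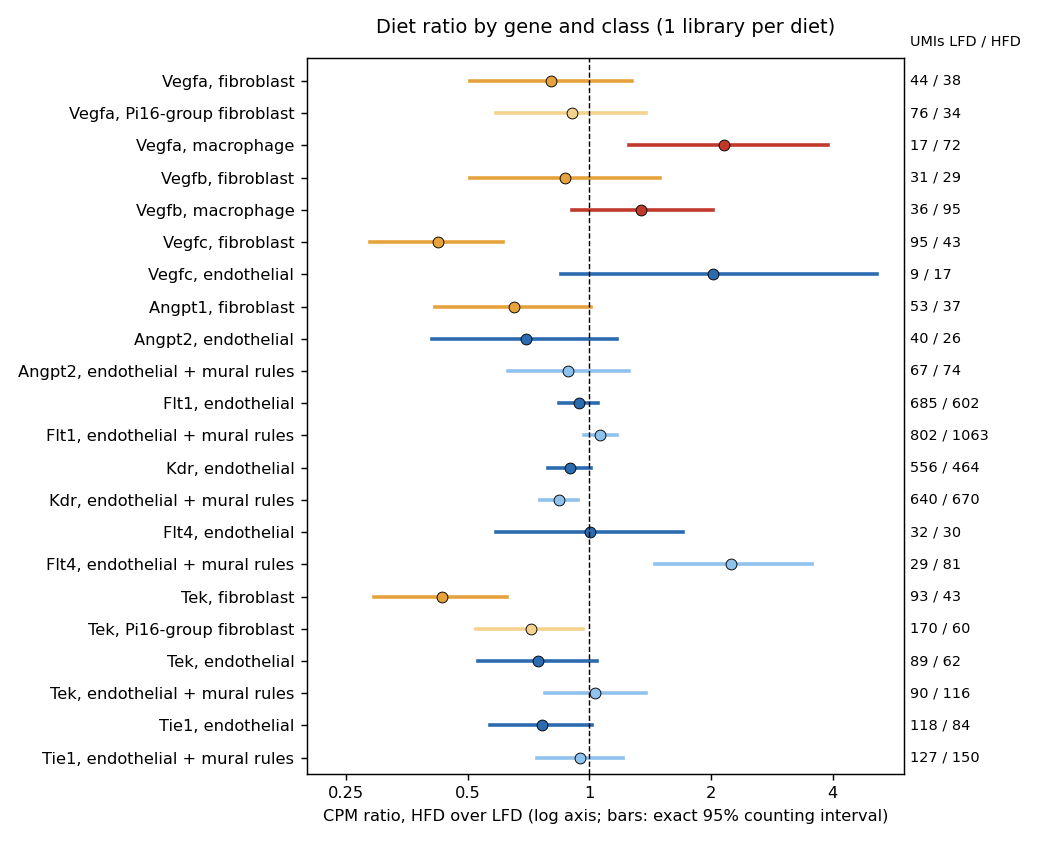
CPM ratio of HFD over LFD on a log axis for each gene in the classes that held most of its UMIs; points are ratios, bars are exact 95% counting intervals, and the UMIs of both libraries are printed at the right. Vegfc and Tek in fibroblasts lay at 0.422 and 0.431, Vegfa in macrophages at 2.15 and Flt4 in double-rule barcodes at 2.24.

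Angpt1, the vessel-stabilising ligand, had most of its UMIs in fibroblasts. It had 35.6 CPM on LFD and 23.1 CPM on HFD in fibroblasts (0.651, 0.416 to 1.01) and 10.8 and 7.29 CPM in Pi16-group fibroblasts (0.676, 0.220 to 1.78). Fibroblasts thus exceeded the Pi16 group 3.30-fold on LFD (1.90 to 5.99) and 3.17-fold on HFD (1.33 to 9.20). No Angpt1 UMI was found in 98 and 115 endothelial barcodes, which allows up to 5.43 and 5.81 CPM at 3 counts, or in macrophages. Lymphocytes held 2 UMIs in each library, 4.61 CPM on LFD (0.559 to 16.7) and 20.5 CPM on HFD (2.48 to 74.0). HFD macrophages, with 0 UMIs and 1.03 CPM at 3 counts, gave a lower level than these few lymphocyte UMIs. With only barcodes of 200 to 2500 genes and under 5% mitochondrial UMIs, as in the methods, 7 and 13 UMIs remained and the ratio was 1.05.

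Angpt2, the antagonist ligand stored and released by endothelium, was found mostly in barcodes meeting the endothelial rule, the larger part of it in those that met the mural rule as well. Endothelial barcodes had 72.4 CPM on LFD and 50.3 CPM on HFD (0.696, 0.408 to 1.17), and double-rule barcodes 88.8 and 78.7 CPM (0.886, 0.628 to 1.25). Barcodes meeting the endothelial rule held 96.7% of Angpt2 UMIs on LFD and 85.6% on HFD. The endothelial class held 32.5 and 18.7%, and the double-rule barcodes 54.5 and 53.2%. The rest on HFD lay mainly in macrophages, with 14 UMIs in 9 of 321 barcodes (4.78 CPM) against 0 of 230 on LFD. This was 2.37 times the level that 3 counts would give on LFD, and the exact interval of the ratio began at 1.68, or at 1.29 without the richest barcode. Lymphocytes held no Angpt2 UMI, where 3 counts come to 30.7 CPM on HFD. Both HFD fibroblast classes together held 1 Angpt2 UMI (0.413 CPM, 0.0105 to 2.30), below the macrophage level. Of these 9 macrophages, 8 had a Cd9 UMI, 6 had Spp1, 5 had Vegfa and 2 had the endothelial Cdh5, while none had Kdr, Flt1 or Cldn5. The Angpt2 share of Angpt2 and Angpt1 UMIs over all barcodes was 61.2% on LFD (54.1 to 68.0) and 73.2% on HFD (66.3 to 79.3). With the limits of the methods it was 54.2% on LFD and 33.3% on HFD (15.6 to 55.3), from 8 Angpt2 and 16 Angpt1 UMIs on HFD.

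**Figure D4:**
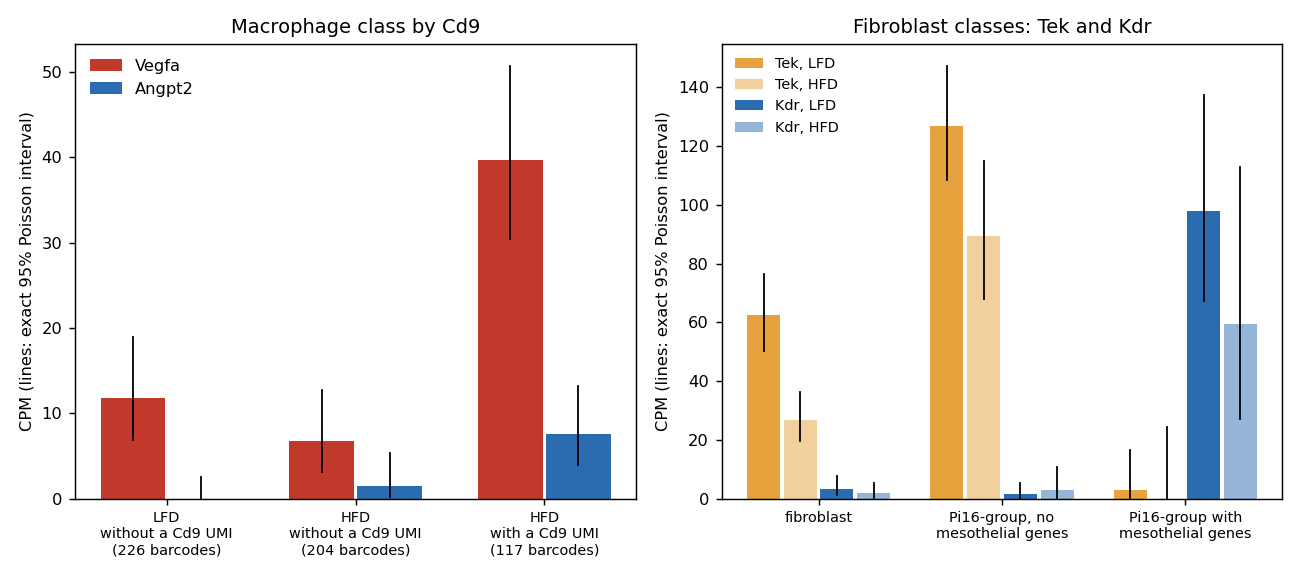
Left, CPM of Vegfa and Angpt2 in macrophages split by the presence of a Cd9 UMI; the 4 LFD macrophages with Cd9 had no UMI of either gene and are not drawn. Right, CPM of Tek and Kdr in fibroblasts and in Pi16-group fibroblasts with and without mesothelial genes (LFD solid, HFD pale); bars are values and lines are exact 95% Poisson intervals. Vegfa reached 39.7 CPM in HFD Cd9 macrophages, and Kdr 97.9 CPM in LFD barcodes with mesothelial genes.

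Kdr and Flt1, the VEGF-A receptors, were endothelial transcripts whose intervals in that class included a ratio of 1. Kdr had 1006 CPM on LFD and 898 CPM on HFD in endothelial barcodes (0.893, 0.788 to 1.01). Flt1 had 1239 and 1166 CPM (0.940, 0.842 to 1.05). A Kdr UMI was seen in 82 of 98 and 93 of 115 endothelial barcodes (83.7 and 80.9%, or 57.9 and 55.4% after thinning), against 1 of 101 and 0 of 41 lymphocytes. Over every barcode meeting the endothelial rule the Kdr ratio was 0.804 (0.744 to 0.870). Both receptors were detected together in 74 and 83 endothelial barcodes. Barcodes meeting the endothelial rule held 96.0% of Kdr UMIs on LFD and 97.9% on HFD, and 98.3 and 97.6% of those of Flt1.

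In the double-rule barcodes Kdr had 848 and 712 CPM (0.840, 0.753 to 0.938) while Flt1 had a ratio of 1.06 (0.969 to 1.17). The Flt1 share of Flt1 and Kdr UMIs there was 55.6% on LFD (53.0 to 58.2) and 61.3% on HFD (59.0 to 63.6). The corresponding endothelial shares were 55.2% (52.4 to 58.0) and 56.5% (53.4 to 59.5). The gene and mitochondrial limits of the methods left 8 and 31 Kdr UMIs in double-rule barcodes, with a ratio of 1.81, and turned the endothelial Flt1 ratio to 1.24 (1.02 to 1.53). The Flt1 share in double-rule barcodes was then 52.9% on LFD and 45.6% on HFD.

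Outside endothelium, Kdr marked a small set of barcodes within the Pi16 group. The class held 35 Kdr UMIs on LFD and 11 on HFD, of which 33 and 9 lay in the 25 and 12 barcodes that also met a rule on the mesothelial genes Upk3b, Upk1b and Msln. The Kdr level in those barcodes was 97.9 CPM on LFD (67.4 to 138) and 59.5 CPM on HFD (27.2 to 113), against 1.50 and 2.98 CPM in the rest of the class. Flt1 did not accompany it, with 1 UMI on LFD and 0 on HFD in the same barcodes. The mesothelial grouping within this class was made after the values were seen.

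Flt4, the VEGF-C receptor, was present in the same endothelial classes. Endothelial barcodes had 57.9 CPM on LFD and 58.1 CPM on HFD (1.003, 0.589 to 1.70), with every one of the 24 LFD and 21 of the 23 HFD Flt4 barcodes also holding Kdr. In double-rule barcodes it had 38.4 and 86.1 CPM (2.24, 1.45 to 3.55), the one of 6 members with at least 50 UMIs that passed 2-fold there, where 0.828% of all genes were 2-fold higher and 0.788% lower. A single HFD barcode with the lymphatic genes held 36 of the 81 UMIs. Without the barcodes with lymphatic genes (Prox1, Mmrn1, Ccl21a and Lyve1 of at least 3), the levels were 38.4 and 49.4 CPM and the ratio was 1.28 (0.788 to 2.12). Such barcodes were few, 2 in each library in the endothelial class and 1 on HFD among the double-rule barcodes, so lymphatic vessels were barely sampled. With the class thresholds doubled the endothelial ratio was 1.94, with 36 and 73 UMIs in that class.

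None of the 6 members with at least 50 UMIs in the endothelial class passed 2-fold in either direction, beside 0.736% of genes higher and 1.5% lower. Placental growth factor Pgf, a ligand of FLT1, did so, with 10 UMIs on LFD (18.1 CPM) and 68 UMIs on HFD (132 CPM; 7.28, 3.73 to 15.9). These UMIs lay in 4 and 9 barcodes, and 25 of the HFD UMIs were in 1 of them. In the double-rule barcodes Pgf had 15 UMIs in 3 barcodes on LFD and 10 UMIs in 7 barcodes on HFD. Keeping barcodes in every class whose rule they met gave 34 and 110 UMIs and a ratio of 2.77 (1.87 to 4.20).

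Tek, the angiopoietin receptor, was shared between endothelium and fibroblasts, and the fibroblast part was lower on HFD. Endothelial barcodes had 161 CPM on LFD and 120 CPM on HFD (0.745, 0.530 to 1.04), and double-rule barcodes 119 and 123 CPM (1.03, 0.779 to 1.38). Pi16-group fibroblasts had 102 and 72.9 CPM (0.716, 0.524 to 0.966). The other fibroblasts had 62.4 and 26.9 CPM (0.431, 0.293 to 0.625). Both fibroblast classes together held 56.6% of Tek UMIs on LFD and 33.3% on HFD, and their joint level was 83.2 and 42.5 CPM (0.511, 0.403 to 0.644).

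A Tek UMI was found in 86 of 173 Pi16-group fibroblasts on LFD (49.7%, 42.0 to 57.4%) and 32 of 84 on HFD (38.1%, 27.7 to 49.3%). Among the other fibroblasts it was found in 70 of 204 (34.3%) and 35 of 207 (16.9%). No lymphocyte and 1 of 230 LFD macrophages had one, at median depths of 2833 and 6328 UMIs against 9420 in the LFD Pi16 group. After thinning to 1000 UMIs the Pi16-group shares were 9.74 and 6.90%, and those of the other fibroblasts 6.41 and 2.66%. None of the 86 and 32 Pi16-group barcodes with Tek had Tie1 or Cdh5, the adhesion molecule of endothelial junctions, while 1 in each library had Kdr and 2 on LFD and 1 on HFD had Cldn5. Barcodes with at least 3 UMIs of Cdh5 and Cldn5 had already been set apart by the class rules. Few UMIs of these 2 genes could therefore remain here, whereas Tie1 and Kdr were not used by the rules. Barcodes with mesothelial genes held 1 Tek UMI in all in this class, and without them the Pi16 group had 127 CPM on LFD and 89.3 CPM on HFD. This was 2.03 times the level of the other fibroblasts on LFD (1.57 to 2.65) and 3.32 times on HFD (2.21 to 5.03). The other-fibroblast ratio of HFD over LFD lay between 0.366 and 0.488 under the 8 alternative settings.

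Tie1, by contrast, stayed within endothelium. It had 213 CPM on LFD and 163 CPM on HFD in endothelial barcodes (0.762, 0.569 to 1.02) and 168 and 159 CPM in double-rule barcodes (0.948, 0.743 to 1.21). Barcodes meeting the endothelial rule held 98.2% of its UMIs on LFD and 99.6% on HFD, and both fibroblast classes held 1 UMI in all. The Tek share of Tek and Tie1 UMIs in the endothelial class was 43.0% on LFD (36.2 to 50.04) and 42.5% on HFD (34.3 to 50.9). Over all barcodes it was 62.8% on LFD (59.2 to 66.2) and 53.3% on HFD (49.1 to 57.4), the fibroblast Tek being counted there.

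The other ligands, co-receptors and partners of these receptors were followed as a list of 6 genes. In endothelium 4 of them had at least 50 UMIs, 1 of these (Pgf) was at least 2-fold higher and none 2-fold lower, where 0.736% of all genes were higher and 1.5% lower, and their median ratio was 1.44 against 1.01 for all genes. Nrp1, a neuropilin that binds VEGF-A, was also a macrophage transcript, with 651 CPM on LFD and 358 CPM on HFD (0.550, 0.503 to 0.601), and had 1381 and 1592 CPM in endothelium (1.15, 1.04 to 1.27). Nrp2, the neuropilin of VEGF-C, had 152 and 261 CPM in endothelium (1.72, 1.30 to 2.29). Ptprb, the phosphatase that restrains TEK, had 1225 and 1226 CPM there (1.0006, 0.896 to 1.12) and 1266 and 1001 CPM in double-rule barcodes (0.791, 0.722 to 0.866). Of the 6 sprouting genes, 3 had at least 50 UMIs in endothelium, 1 of these (Apln, the apelin ligand of tip cells) was at least 2-fold higher and none 2-fold lower, beside the same 0.736 and 1.5% of all genes, with a median ratio of 1.08 against 1.01. In double-rule barcodes 4 sprouting genes had at least 50 UMIs, none passed 2-fold, and the median ratio was 0.702 against 1.01. Among the 8 endothelial transcription factors all had at least 50 UMIs there and none passed 2-fold, with a median ratio of 0.960. Sox17 had 223 and 302 CPM (1.36, 1.06 to 1.73), and Foxo1, a factor that TEK signalling inhibits and that drives Angpt2, had 109 and 71.6 CPM (0.660, 0.426 to 1.01).

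For each member the genes with the most similar levels over 12 class and library profiles were found. Pearson correlations of log2(CPM + 10) among 10858 genes are given as a description, since the profiles share libraries and classes. Kdr, Flt1, Flt4 and Tie1 were high only in the endothelial profile of each library. A value near 1 follows for any other gene found mainly there, such as the rule gene Cdh5 (0.998 with Flt4). Tie1 was nearest to Dll4 (r = 0.99995), Kdr to Lmo7, Efna1 and Esam (0.994 to 0.996), Flt1 to Flt4 (0.993) and Flt4 to Rasip1 (0.999). Tek, with its 2 sources, was nearest to Fam171a1, Prickle1 and Fzd8 (0.987 to 0.989). Vegfc was nearest to Hoxa3 (0.963), Angpt1 to Arhgap24 (0.957) and Angpt2 to Arap3 (0.990). Vegfa was nearest to Ncdn (0.965) and Vegfb to Msrb2 (0.909).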

How the data were processed

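Epididymal stromal cells of one LFD and one HFD library were sequenced by the study with 10x Chromium 3′ v3 chemistry. The authors aligned the reads to mm10 with Cell Ranger (3.0.2 per the file headers) and deposited filtered UMI counts per gene and barcode, not normalized. Barcodes with at least 200 genes were kept. Each gene's counts were summed over a class and divided by all UMIs of the class (CPM). Barcodes meeting more than one rule were set apart, and those meeting none were placed by lymphocyte (Cd3d, Cd3e, Cd3g, Nkg7, Cd79a, at least 3 UMIs) or other myeloid genes (Lyz2, H2-Ab1, Cd74, at least 20) or left unclassified. Doublets were not removed; Scrublet (scanpy 1.11.5, expected rate 1%) marked 21 LFD and 26 HFD barcodes and served as an alternative.

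Intervals are exact (Poisson, Clopper-Pearson, or conditional binomial for a ratio, with scipy 1.17.1). The ratio intervals were run on simulated counts drawn as independent Poisson values, the model they assume. That run does not show their coverage where UMIs gather in single barcodes. With 1 library per diet no test was run. Thinned shares are the expected share of barcodes with a UMI after drawing 1000 UMIs, leaving out shallower barcodes, of which the endothelial class had 7 on LFD and 19 on HFD. Shares of all genes past 2-fold are over genes with at least 50 UMIs in the class. The study's differential expression between clusters, by MAST, was not repeated. The members, class rules and gene lists were chosen with earlier results of these data known. All members are named, with part of the pathway list genes and part of the 3 genes most correlated with each member. No level is printed for the sprouting genes Esm1, Dll4, Kcne3 and Cxcr4 or the oxygen-sensing genes Pgk1, Adm, Bnip3 and Ankrd37. The same holds for the transcription factors Erg, Fli1, Ets1 and Sox18. These genes enter the list counts and medians wherever they had at least 50 UMIs. Cd9, Spp1, the adipocyte and the marker genes were chosen otherwise. By the rule first set, the top class of Vegfa and Vegfb was mural (2 and 1 UMIs in 11 barcodes); the top class among classes with at least 20 barcodes was used instead. Ccl21a is listed on 2 lines, which were summed. No per-sample column was left unused.

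Since 3′ UMI counts depend on how each transcript end is captured, the levels of different genes were not ranked, and the share of one gene among the UMIs of a pair was compared between libraries and classes only. Ensembl identifiers and GRCm38 positions (GENCODE M21) are as follows. The genes are Vegfa ENSMUSG00000023951 at chr17:46016993-46032369 (minus strand), Vegfb ENSMUSG00000024962 at chr19:6982473-6987651 (minus strand), Vegfc ENSMUSG00000031520 at chr8:54077606-54187096 (plus strand), Kdr ENSMUSG00000062960 at chr5:75932827-75978458 (minus strand), Flt1 ENSMUSG00000029648 at chr5:147561604-147726011 (minus strand), Flt4 ENSMUSG00000020357 at chr11:49609263-49652739 (plus strand), Tek ENSMUSG00000006386 at chr4:94739289-94874976 (plus strand), Tie1 ENSMUSG00000033191 at chr4:118471191-118490061 (minus strand), Angpt1 ENSMUSG00000022309 at chr15:42424723-42676977 (minus strand) and Angpt2 ENSMUSG00000031465 at chr8:18690263-18741562 (minus strand).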

Additional observations from a re-analysis of the deposited data

Results flagged for a closer look

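Apln, the apelin transcript of sprouting endothelium, had ratios of HFD over LFD in opposite directions in the 2 endothelial classes. In endothelial barcodes the ratio was 2.76 (1.73 to 4.52, 26 and 67 UMIs), and in barcodes meeting both the endothelial and the mural rule it was 0.615 (0.410 to 0.919, 60 and 46 UMIs). Of the 67 UMIs, 29 lay in 1 HFD barcode, and without the richest barcode of each library the endothelial ratio was 2.03 (1.15 to 3.69). Ndrg1 had a ratio of 28.9 in macrophages, resting on 1 LFD UMI, and of 0.647 in fibroblasts (0.456 to 0.912). Both genes were picked out because, among the 5 classes fibroblast, Pi16-group fibroblast, endothelial, macrophage and double-rule, their counting intervals left out 1 on opposite sides, by at least 1.5-fold each way, in classes where the gene had at least 50 UMIs. The difference between classes was not tested in either gene, since each diet had 1 library.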

How the results depend on the processing

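Each value was recomputed under other settings, one at a time. Vegfc and Tek in the fibroblasts outside the Pi16 group kept ratios of 0.339 to 0.489 and 0.366 to 0.488 under every setting run. The settings of at least 1000 UMIs a barcode and no mitochondrial UMIs moved no value beyond its counting interval. Leaving out the richest barcode, added after the data were seen, moved the ratio of Vegfa in macrophages from 2.15 to 4.86, that of Flt4 in double-rule barcodes from 2.24 to 1.43 and Vegfa of macrophages over fibroblasts on LFD from 0.387 to 0.186. Without the only LFD UMI of Ndrg1 and of Slc2a1 in macrophages, their ratios had no finite value, with exact intervals from 6.36 and from 4.35. The limits of the methods (200 to 2500 genes, under 5% mitochondrial UMIs) moved the most values. The ratios of HFD over LFD were then 0.511 for Vegfa in the Pi16 group, 0.753 for Vegfb in macrophages, 1.24 for Flt1 and 0.549 for Tie1 in endothelium and 1.05 for Angpt1. In CPM, Vegfa was 94.9 (LFD, Pi16 group), Vegfb 16.6 (HFD, macrophage), Vegfc 104 (LFD, fibroblast), and in endothelium Flt1 1060 (LFD) and 1320 (HFD), Flt4 84.6 (LFD), Tek 117 (LFD) and Tie1 121 (HFD). The endothelial class then held 86.2% of Kdr UMIs over both libraries, 86.5% of Flt1, 85.2% of Flt4, 42.6% of Tek, 78.9% of Tie1 and 76.2% of Angpt2, fibroblasts 76.9% of Vegfc, macrophages 27.1% of Vegfb, and the mural class 0 of Vegfa and 0 of Vegfb. The Flt1 share of Flt1 and Kdr was 49.5% (LFD, endothelial), and 52.9% and 45.6% in LFD and HFD double-rule barcodes, Tek of Tek and Tie1 34.6% (LFD, endothelial) and Angpt2 of Angpt2 and Angpt1 33.3% (HFD, all barcodes). Directions turned there for Kdr (1.81), Ptprb (1.81) and Epas1 (1.25) in double-rule barcodes, Nrp2 (1.06) and Hif1a (1.19) in macrophages, Ldha (1.26) and Klf4 (1.09) in endothelium, Klf4 in fibroblasts (0.987) and Vegfb of macrophages over fibroblasts on HFD (0.707); the cause was not tested.

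Keeping barcodes in each class whose rule they met, endothelial shares were 96.9% (Kdr), 97.9% (Flt1), 97.3% (Flt4), 52.1% (Tek), 98.9% (Tie1) and 90.8% (Angpt2), mural shares 5.22% (Vegfa) and 11.7% (Vegfb), Kdr 869 and 699 CPM and Flt1 1052 and 1017 CPM on LFD and HFD, and Ldha in endothelium turned to 1.002. With doubled thresholds the shares were 44.4, 41.1, 58.3, 22.9, 42.6 and 32.1% in the same order, and Flt4 had a ratio of 1.94 and 116 CPM on HFD. Without Scrublet doublets the endothelial class held 40.9% of Kdr and 38.6% of Flt1. As means over barcodes, LFD endothelium had 924 CPM of Kdr and 1132 CPM of Flt1, Flt1 had a ratio of 1.11 and Nrp2 in double-rule barcodes turned to 0.981. Thinned to 500 UMIs, the shares of barcodes were 2.75% for Vegfc (LFD fibroblasts) and, in LFD and HFD endothelium, 35.4 and 33.4% for Kdr, 40.3 and 43.8% for Flt1, 11.2 and 8.02% for Tie1 and, on LFD, 6.81% for Tek. With a minimum of 20 UMIs, genes 2-fold higher and lower made up 2.52 and 4.5% in fibroblasts, 2.29 and 4.06% in the Pi16 group, 2.56 and 3.41% in endothelium and 2.41 and 2.08% in double-rule barcodes. With a minimum of 100 they were 0.869% lower in the Pi16 group, 0.342% higher in endothelium and 0.342% lower in double-rule barcodes. No paired analysis was possible because each diet had 1 library, and no library could be left out.

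With 1 library per diet the intervals cover counting error alone, so the spread between animals and preparations is not in them and diet and library cannot be told apart. Most members had under 100 UMIs in a class, which sets the width of their intervals.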

Other observations

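Angpt4, the third angiopoietin, and Pgf had a few UMIs in fibroblasts, under the minimum of 50 used for the shares of all genes. Their levels were not set against a measure of free RNA. Over both fibroblast classes Angpt4 had 20 UMIs on LFD and 3 on HFD (6.33 and 1.24 CPM; ratio 0.196, 0.0372 to 0.660), and Pgf had 26 and 5 UMIs (8.23 and 2.06 CPM; 0.251, 0.0752 to 0.664). The oxygen sensor Egln3 had 21 and 3 UMIs in the same barcodes (0.186, 0.0356 to 0.624). The other oxygen-sensing genes did not follow it. In fibroblasts and in the Pi16 group 6 of the 10 had at least 50 UMIs, and none passed 2-fold. Their median ratios were 1.15 and 0.867, against 0.995 and 0.999 for all genes. In macrophages the flow-responsive factors Klf2 and Klf4 had 779 and 285 CPM (0.366, 0.335 to 0.401) and 764 and 322 CPM (0.422, 0.386 to 0.460), while in endothelium their ratios were 0.945 and 0.848. Pdgfb, a ligand for mural cell recruitment, had 12 UMIs on LFD and 91 on HFD in macrophages, which held 1486316 and 2926761 UMIs of all genes. Without the richest barcode of each library it had 6.77 and 29.7 CPM (4.39, 2.27 to 9.48). Macrophages with Cd9 held 74 of the 91 UMIs, and in those without Cd9 the ratio was 1.66 (0.735 to 3.93).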
